A study of Trametes sanguinea with 15 samples.

Results

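Transcript levels of the white-rot basidiomycete Pycnoporus sanguineus CIRM-BRFM 1264 were compared between mycelium grown on aspen, a hardwood, and mycelium grown on wheat straw, a grass. The comparison took every library that the labels assign to either substrate, 3 on aspen and 3 on wheat straw, out of 15 libraries in the series. The aspen cultures received Wiley-milled wood at 15 g/l and the straw cultures ground and sifted wheat straw at the same mass, both with maltose at 2.5 g/l, and mycelium was harvested on day 3. The remaining 9 libraries, on maltose, Avicel (crystalline cellulose) or a xylan-galactomannan mixture, entered the estimate of the spread and served as a reading of levels elsewhere. The maltose cultures held a higher dose of maltose and no other substrate. Those on Avicel or xylan-galactomannan held 15 g/l of it with maltose at 2.5 g/l. The study describes the replicates on both plant substrates as independent cultures of this 1 strain. The aspen and wheat straw libraries held 34981970 to 41392670 counts each, of which the 10 highest genes took 4.83 to 7.09%.

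White-rot fungi break down all the main polymers of the plant cell wall. Cellulose chains are cut by cellobiohydrolases and endoglucanases of the glycoside hydrolase (GH) families and by lytic polysaccharide monooxygenases (auxiliary activity family AA9), which receive electrons from cellobiose dehydrogenase. Hemicelluloses and pectin need further GH families and carbohydrate esterases (CE), and lignin is attacked by oxidases such as laccase (AA1_1). Hardwood and grass walls differ in their hemicelluloses, in their lignin and in the phenolic acids that cross-link grass walls.

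The cultures on aspen and on wheat straw differed across much of the transcriptome. Of 11724 genes tested, 690 were called higher on aspen (5.89%) and 837 were called lower on aspen (7.14%), where a call means a Benjamini-Hochberg adjusted p under 0.05 in edgeR's quasi-likelihood test with a change of more than 2-fold. The called genes had log2 fold changes (aspen over wheat straw) between -4.48 and 5.56, with a median size of 1.31. Changes of 4-fold or more were found for 103 of the genes called higher and for 53 of the genes called lower. All 3 aspen libraries lay above all 3 wheat straw libraries for 28.4% of the genes tested and below them for 30.3%. Genes called higher took 8.47% of the counts on aspen, against 2.61% on wheat straw, and genes called lower took 4.27% on aspen, against 10.2% on wheat straw. The root-mean-square difference in log2 CPM was 0.748 to 0.899 between an aspen and a wheat straw library, 0.378 to 0.5 within aspen and 0.41 to 0.458 within wheat straw. CPM is a gene's count relative to the total of its library, after that total has been adjusted by a TMM factor (trimmed mean of M-values). It is relative to all mRNA of the mycelium, so more transcript per cell and more cells making it cannot be told apart.

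The fold change fell with the length of the gene model. Spearman's rho across genes between log2 fold change and length was -0.337, a description over genes, which are not independent replicates. In the tenth of the genes with the shortest models (150 to 556 bases) the median log2 fold change was 0.32, and 8.18% were called higher and 3.07% lower on aspen. In the tenth with the longest models (2722 to 14998 bases) the median was -0.43, with 0.938% called higher and 14.1% lower. Genes called higher on aspen had a median length of 997.5 bases and genes called lower one of 1756 bases, against 1284 bases over all genes tested. The relation was present at low, middle and high levels, with rho -0.103, -0.346 and -0.393 in 3 equal classes of genes ordered from low to high mean CPM.

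The same relation was sought between cultures on 1 substrate. Each of the 9 pairs of an aspen and a wheat straw library had a rho between -0.353 and -0.272, whereas the 3 wheat straw pairs had -0.031 to 0.014. Among the aspen libraries the rho was 0.137 for replicate 1 minus replicate 2, -0.053 for replicate 1 minus replicate 3 and -0.262 for replicate 2 minus replicate 3, so replicate 2 stood apart from the other aspen cultures in the direction of the substrate difference. Without replicate 2 of aspen the rho between the substrates was -0.306, and 528 genes were called higher and 598 lower. Set against maltose, the rho was -0.102 on aspen and 0.173 on wheat straw, so that maltose lay between them. For xylan-galactomannan against maltose it was -0.186, and for Avicel against maltose 0.076. Whether the relation to length comes from the RNA, from the libraries or from the biology of long and short genes was not tested.

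**Figure D1:**
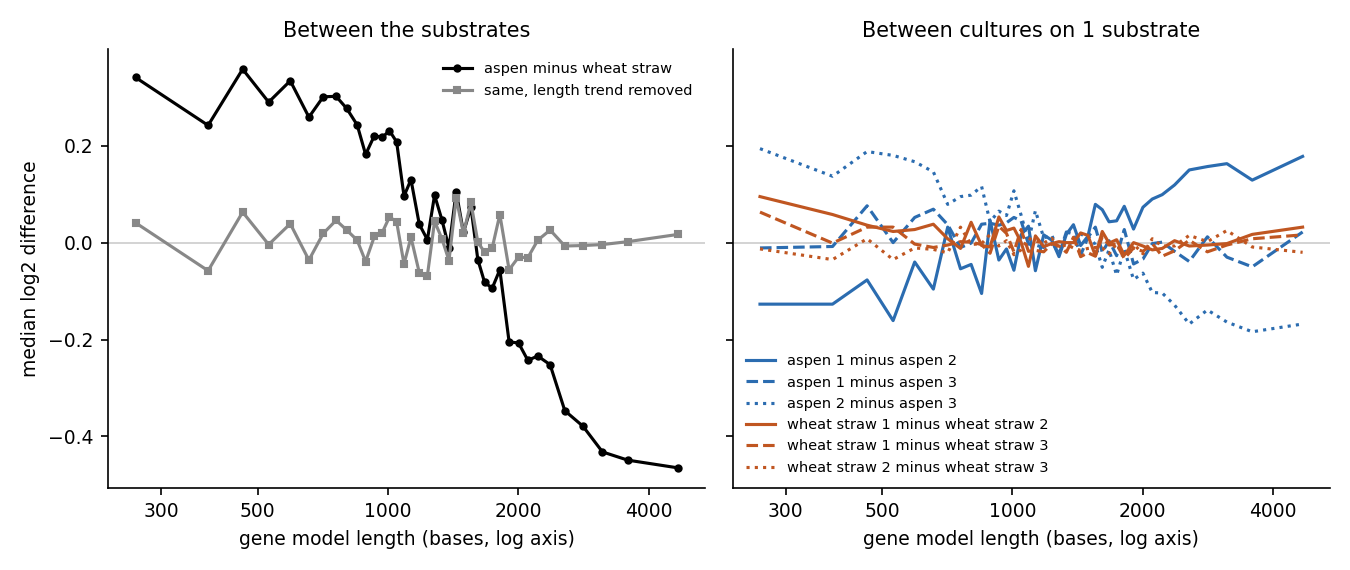
Median log2 difference (y axis) in successive groups of 300 genes ordered by gene model length (x axis, bases, log scale). In the left panel the aspen minus wheat straw difference (black circles) runs from 0.341 in the shortest group to -0.465 in the longest, and the difference with the length trend removed (grey squares) stays near 0. In the right panel the 3 pairs of aspen libraries (blue) and the 3 pairs of wheat straw libraries (orange) are shown on the same scale, and the 2 pairs with aspen replicate 2 slope in opposite directions.

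Every call was therefore read a second time with a smooth curve on length removed from each library, after which rho was -0.009 over all genes. By level it was then 0.114 in the class of low mean CPM, -0.015 in the middle and 0.024 in the high class. In the low class the removal thus turned a rho of -0.103 into one of the opposite sign. Calls of low-level genes in this reading carry that trend. In this reading 532 genes were called higher (4.54%) and 701 lower (5.98%) on aspen, with median lengths of 1289.5 and 1290 bases. Of the genes called at first, 456 higher and 570 lower kept their call, 234 higher and 267 lower lost it, and 76 higher and 131 lower were gained. Below, a call that ended or appeared with this removal is given with both values. The removal also takes away any true difference that follows length.

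Annotated genes were grouped into 13 lists with 72 members, all tested. Their annotations come from the study's tables of genes selected on aspen or wheat straw, from its table of nodes rich in secreted proteins and from its text. Nodes are the study's clusters of genes with similar levels across carbon sources, aspen and wheat straw among them. Some members were picked on these libraries for high levels on 1 or both substrates, and others through such a node. Their counts are therefore no independent evidence of a direction. Over the 72 members, 6 were called higher and 17 lower on aspen, and the median log2 fold change was -0.47, against 0.03 over all genes tested. As shares of the 72 these calls stand beside 5.89% and 7.14% over all genes tested. Leaving out 1 library gave 5 to 8 members called higher and 8 to 12 called lower. The fewest were called higher without wheat straw replicate 2, and the fewest lower without aspen replicate 2.

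Of 6 genes for cellulose breakdown, 4 were called lower on aspen and none higher, beside 7.14% called lower over all genes tested. All 6 had a negative log2 fold change, with a median of -1.37. The study had placed all 6 in a single node, formed on levels that include these libraries. Their shared direction is therefore no independent support, and the share over all genes is no test of it. Summed over the 6 genes the level was 1174 ± 322 CPM on aspen and 3289.9 ± 660.4 CPM on wheat straw (SD, n = 3 each). The gene of family AA8-AA3_1 (1672751), the architecture of cellobiose dehydrogenase, had 312, 188 and 162 CPM on aspen, against 724, 1164 and 935 CPM on wheat straw. The groups lay well apart, and the log2 fold change was -2.09 ± 0.49 (SE), with an adjusted p of 0.0068. This call held in all 19 alternative settings.

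The GH6 gene with a cellulose-binding module CBM1 (1567787), from a family of cellobiohydrolases and endoglucanases, had 464, 281 and 319 CPM on aspen, against 749, 937 and 785 CPM on wheat straw. Its log2 fold change was -1.22 ± 0.36 (adjusted p = 0.022), and no library of 1 substrate reached those of the other. The call was lost without aspen replicate 2 or 3 or wheat straw replicate 2 (adjusted p 0.069 to 0.09). GH131-CBM1 (571793), a β-glucanase family, had 188, 139 and 121 CPM on aspen, against 257, 359.5 and 295 CPM on wheat straw, a log2 fold change of -1.03 ± 0.31 (adjusted p = 0.025) just past the threshold. That call was lost with library totals as scaling (-0.94) and with the minimum of 10 CPM (-0.95). It was also lost without replicate 2 or 3 of either substrate (adjusted p 0.056 to 0.094). GH7 (1675671), the family of the main fungal cellobiohydrolases, had 36.2, 44.2 and 77.1 CPM on aspen, against 333, 448 and 61.6 CPM on wheat straw. Here wheat straw replicate 3 lay inside the range of the aspen cultures. The log2 fold change was -2.42 ± 0.71 (adjusted p = 0.021). The call was lost when only the 6 libraries were fitted (adjusted p = 0.057) and without replicate 1 or 2 of aspen or of wheat straw (adjusted p 0.055 to 0.086).

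The remaining cellulose-active genes were not called. AA9-CBM1 (1583489), a lytic polysaccharide monooxygenase, had 256, 168 and 172 CPM on aspen, against 531, 739 and 444 CPM on wheat straw, with no overlap. Its log2 fold change was -1.52 ± 0.57 (adjusted p = 0.060), and it was called with the length trend removed (-1.72, adjusted p = 0.042), as well as with DESeq2, with limma-voom and with only the 6 libraries fitted. GH74 (1721886), a family that includes xyloglucanases, had a log2 fold change of -0.89 ± 0.25, short of the fold threshold. Leaving out aspen replicate 2 or wheat straw replicate 2 left 1 of the 6 genes called, and leaving out aspen replicate 3 left 2, although all 6 fold changes stayed negative under every setting tried.

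On both plant substrates these genes stood far below their level on Avicel. GH7 averaged 52.5 CPM on aspen and 281 CPM on wheat straw, against 31691 ± 25537 CPM on Avicel, and its mean on maltose was 36.5 CPM. CBM1-GH6 averaged 354 CPM on aspen and 824 CPM on wheat straw, against 10386 ± 6152 CPM on Avicel and 7.49 ± 1.8 CPM on maltose.

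**Figure D2:**
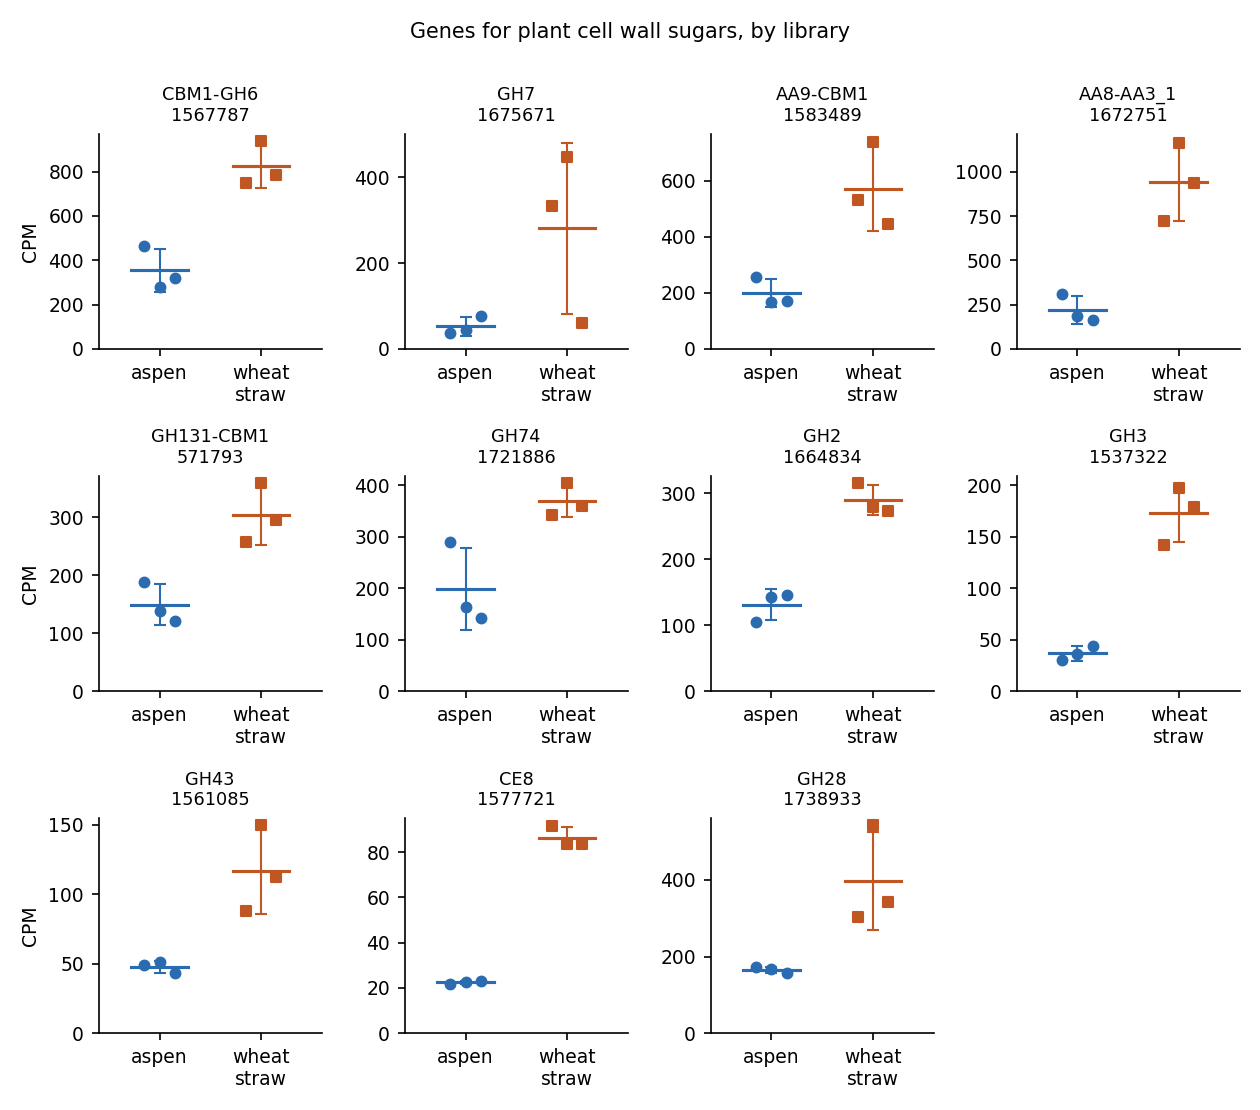
Level in CPM (y axis, linear from 0, a scale for each gene) in the 3 aspen (blue circles) and the 3 wheat straw libraries (orange squares) for the 6 cellulose-active genes and the 5 called genes of the hemicellulose, pectin and GH3 lists. Lines and bars give the mean and SD. Wheat straw lies above aspen without overlap in every panel but GH7, where 1 wheat straw culture had 61.6 CPM. The 5 genes were shown because they were called, and 834 of the 837 genes called lower had no overlap. Over all genes tested, 30.3% had no overlap in this direction.

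Of 7 genes for hemicellulose, 2 were called lower and none higher on aspen, with a median log2 fold change of -0.57. Over all genes tested, 7.14% were called lower and 5.89% higher. GH43 (1561085), a family of arabinofuranosidases and xylosidases, had 49.1, 51.4 and 43 CPM on aspen, against 88.3, 149.7 and 112 CPM on wheat straw (log2 fold change -1.29 ± 0.44, adjusted p = 0.044). The other GH43 gene (1695354) had 144, 546 and 366 CPM on aspen, against 161, 253 and 213 CPM on wheat straw, with overlapping groups and no call (0.75 ± 0.60, adjusted p = 0.37). Only the first of these 2 genes passed the test.

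GH2 (1664834), a family with β-mannosidases and β-galactosidases, had 105, 143 and 146 CPM on aspen, against 316, 279.8 and 274 CPM on wheat straw. The log2 fold change was -1.14 ± 0.39 (adjusted p = 0.043), and the call ended with the length trend removed (-0.68, adjusted p = 0.19) for this model of 3525 bases. Both hemicellulase calls were lost when any 1 of the 6 libraries was left out (adjusted p 0.053 to 0.14), and also when libraries were scaled by their totals alone. CE15 (1679979), the glucuronoyl methylesterases that act on bonds between lignin and glucuronoxylan, was not called at -1.59 ± 0.67 (adjusted p = 0.092). It had 21.6, 25.1 and 29.9 CPM on aspen, against 95.7, 93.4 and 41.4 CPM on wheat straw, with no overlap. With DESeq2 and with only the 6 libraries fitted it was called lower. CE16 (1592100), an acetyl esterase family, had the highest value of the list at 1.26 ± 0.48, also without a call (adjusted p = 0.064). It had 94.8, 235 and 176 CPM on aspen, against 76.4, 69.6 and 64.7 CPM on wheat straw, with no overlap. The list had 1 member called higher with DESeq2, with only the 6 libraries fitted, with the minimum of 10 CPM and without aspen replicate 1.

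Pectin-active genes gave 2 calls lower on aspen among 5 members, beside 7.14% called lower over all genes tested. Their median log2 fold change was -0.82. The CE8 gene (1577721), a pectin methylesterase family, had 21.9, 22.5 and 22.9 CPM on aspen, against 91.7, 83.8 and 83.7 CPM on wheat straw. The replicates were tight and the log2 fold change was -1.94 ± 0.53 (adjusted p = 0.015). GH28 (1738933), a polygalacturonase family, had 172, 168 and 156 CPM on aspen, against 304, 543 and 343 CPM on wheat straw (-1.26 ± 0.43, adjusted p = 0.042). Its call ended with the length trend removed (-1.17, adjusted p = 0.065), with library totals as scaling (0.058), with limma-voom (0.05) and when any 1 of the 6 libraries was left out (adjusted p 0.051 to 0.16). CE8 lost its call without aspen replicate 1 or 2 (adjusted p 0.051 and 0.053). In the study's clustering this GH28 gene shares the node of the cellulose-active genes. The CE8 gene shares another node with the called GH43 gene (1561085) and the called GH18 gene (1601452). Calls in these separate lists are thus not independent of each other. GH88 (1428239), which releases unsaturated uronic acids, had 108, 188 and 149 CPM on aspen, against 100.1, 100.1 and 97.8 CPM on wheat straw, and was not called (0.58 ± 0.29, adjusted p = 0.16).

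One of the 2 genes of GH3, the family of β-glucosidases and β-xylosidases, was among the largest decreases of the lists. It (1537322) had 29.7, 36.1 and 44.2 CPM on aspen, against 142, 197 and 179 CPM on wheat straw, with no overlap. The log2 fold change was -2.23 ± 0.47 (adjusted p = 0.0039), and it was called under every one of the 19 settings. The other (1577052) had -0.94 and no call. Over all genes tested, 7.14% were called lower.

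Genes for β-glucan, chitin and mannose-containing glycans of the fungal wall and of glycoproteins showed no common direction. Of 11 members, 1 was called higher and 1 lower on aspen, beside 5.89% and 7.14% over all genes tested. The median log2 fold change was 0.13. GH16 (1591231), a family of β-glucan enzymes, had 362, 288 and 208 CPM on aspen, against 66.9, 50.8 and 67.4 CPM on wheat straw, and rose by 2.21 ± 0.30 on the log2 scale (adjusted p = 0.00027) and in all 19 settings. The chitinase family gene GH18 (1601452) had 23.1, 30.4 and 45.1 CPM on aspen, against 133, 122 and 48.1 CPM on wheat straw (-1.62 ± 0.55, adjusted p = 0.041), and was not called without replicate 1 or 2 of either substrate (adjusted p 0.11 to 0.14). The 3 other GH18 genes were not called. GH76 (1575750), a family of mannanases, was not called (-1.07, adjusted p = 0.056), but was called lower with the length trend removed (-1.18, adjusted p = 0.045), as it was with DESeq2 and with only the 6 libraries fitted.

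Among genes for aromatic compounds, the 2 called of 5 were both lower on aspen, beside 7.14% called lower over all genes tested. The gene annotated as 4-coumarate-CoA ligase (1582251), which activates hydroxycinnamic acids, had 70.3, 75.5 and 86.9 CPM on aspen, against 221, 246 and 282 CPM on wheat straw. Its log2 fold change of -1.68 ± 0.32 (adjusted p = 0.0022) was called in all 19 settings. Hydroxyquinol 1,2-dioxygenase (1588935), a ring-opening enzyme, had 59.9, 54.7 and 56.2 CPM on aspen, against 76.2, 121 and 312 CPM on wheat straw (-1.58 ± 0.40, adjusted p = 0.011). That call was lost without wheat straw replicate 3 (-0.79) and with only the 6 libraries fitted (-1.56, adjusted p = 0.057). The list had 1 call without wheat straw replicate 3 and 3 without wheat straw replicate 1. The homogentisate dioxygenase gene (1615426) had the same culture as its maximum, with 73.7, 112 and 64.1 CPM on aspen, against 72.2, 78.3 and 863 CPM on wheat straw, and was not called.

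Laccase pointed the other way without passing the test. AA1_1 (1560767) had 235, 405 and 322 CPM on aspen, against 47.7, 96.7 and 203 CPM on wheat straw. The groups did not overlap, yet the wheat straw cultures spread over 4-fold and the log2 fold change of 1.47 ± 0.74 had an adjusted p of 0.15. It was not called under any of the 19 settings.

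Cytochromes P450, oxidases with a wide range of substrates, gave 1 call lower among 6 members, beside 7.14% over all genes tested. The gene 1589162 had 99, 124 and 105 CPM on aspen, against 251, 284 and 376 CPM on wheat straw (-1.48 ± 0.28, adjusted p = 0.0020). A second P450 gene (187698) had 156, 154 and 146 CPM on aspen, against 89.5, 69.3 and 81.1 CPM on wheat straw. Its log2 fold change of 0.93 ± 0.19 (adjusted p = 0.0036) fell short of the fold threshold and passed it with the length trend removed (1.12, adjusted p = 0.0013).

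Transporters of the major facilitator superfamily carry sugars and other small molecules. Of 9 members, 1 was called higher and 1 lower on aspen, beside 5.89% and 7.14% over all genes tested. The transporter 292291 had 203, 324 and 192 CPM on aspen, against 74.9, 59.2 and 52.6 CPM on wheat straw, a rise of 1.94 ± 0.26 on the log2 scale (adjusted p = 0.00020). The transporter 1589964, of the same KOG0255 class of orthologous groups, had 25.9, 43.2 and 43.1 CPM on aspen, against 147, 165 and 148 CPM on wheat straw (-2.03 ± 0.40, adjusted p = 0.0025). Both were called in all 19 settings. Another transporter (1621676) had a log2 fold change of 1.00 (adjusted p = 0.052) and 1.20 with the length trend removed (adjusted p = 0.025).

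Of 5 proteases, 1 was called higher and 1 lower on aspen, beside 5.89% and 7.14% over all genes tested. These were the 2 aspartyl proteases (KOG1339), which also went opposite ways. The gene 174056 had 313, 210.2 and 203 CPM on aspen, against 62.3, 46.5 and 53.7 CPM on wheat straw (2.16 ± 0.37, adjusted p = 0.0011), and was called in all 19 settings. The gene 1682142 had 72.3, 76.6 and 67.5 CPM on aspen, against 265, 241 and 262 CPM on wheat straw (-1.83 ± 0.57, adjusted p = 0.029), and lost its call when any 1 of the 6 libraries was left out (adjusted p 0.059 to 0.081). A metalloprotease (1646990, KOG2090) had a log2 fold change of 0.86 (adjusted p = 0.0082), short of the fold threshold, and passed it with the length trend removed (1.21, adjusted p = 0.0013).

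Among 6 lipases and esterases, 1 gene was called lower on aspen, beside 7.14% over all genes tested. It gave the smallest adjusted p of all list members. This carboxylesterase-type gene (1674301, KOG4389) had 48.9, 75.4 and 70.7 CPM on aspen, against 255, 255 and 265 CPM on wheat straw, and fell by 1.99 on the log2 scale (SE 0.19, adjusted p = 4e-05). Its mean was 11.6 CPM on maltose, 15.8 CPM on Avicel and 11.3 CPM on xylan-galactomannan. Both plant substrates lay above these, with means of 65 CPM on aspen and 258 CPM on wheat straw. The call held in all 19 settings.

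Reductases and polyol dehydrogenases gave 2 genes called higher and 1 lower among 7, beside 5.89% and 7.14% over all genes tested. The sorbitol dehydrogenase family gene 1656427 (KOG0024) had 418, 234 and 224 CPM on aspen, against 86.8, 39.9 and 40.8 CPM on wheat straw (2.39 ± 0.39, adjusted p = 0.00086). The aldo-keto reductase family gene 1610012 (KOG1575) had 147, 102 and 138 CPM on aspen, against 108, 34.2 and 38.6 CPM on wheat straw (1.10 ± 0.35, adjusted p = 0.032), overlapped between the groups and was not called with the length trend removed (0.99, adjusted p = 0.059) or with only the 6 libraries fitted (adjusted p = 0.11), or without aspen replicate 1 or 3 or wheat straw replicate 2 or 3 (adjusted p 0.075 to 0.12). The short-chain dehydrogenase 1593701 (KOG0725) had 59.1, 58.2 and 58.8 CPM on aspen, against 122, 143 and 169 CPM on wheat straw (-1.30 ± 0.26, adjusted p = 0.0027).

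The largest increase among annotated genes was found in the class KOG4157, described as a β-1,6-N-acetylglucosaminyltransferase with a WSC domain. Gene 1583293 had 489, 197 and 183 CPM on aspen, against 6.32, 4.68 and 27.4 CPM on wheat straw. Its level was 22.6-fold higher on aspen, with a log2 fold change of 4.50 ± 1.00 (adjusted p = 0.0053). This was 3.89 without aspen replicate 1 and 5.72 without wheat straw replicate 3, and DESeq2 gave the gene no adjusted p. The mean was 0.196 CPM on maltose, 1.47 CPM on Avicel and 64.5 ± 77.6 CPM on xylan-galactomannan. The second member, which also holds a polysaccharide lyase domain (1592999, PL8), did not pass the test (-0.09, adjusted p = 0.84). Over all genes tested, 5.89% were called higher.

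**Figure D3:**
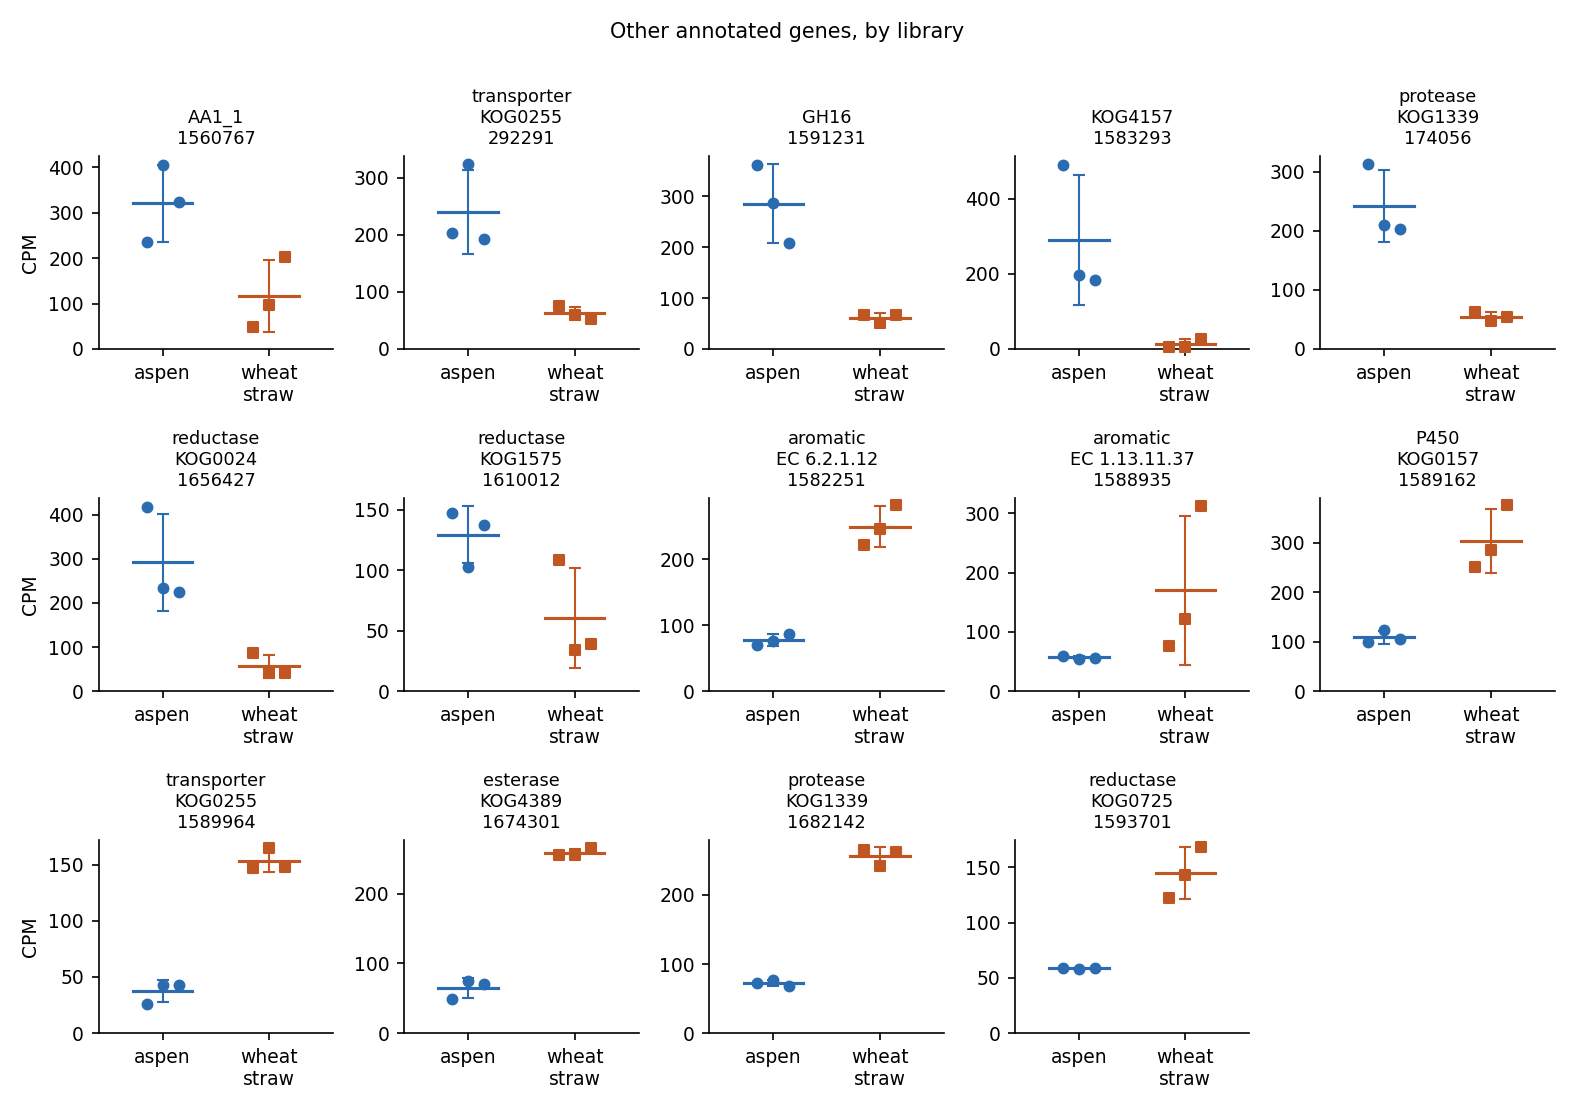
Level in CPM (y axis, linear from 0, a scale for each gene) in the 3 aspen (blue circles) and the 3 wheat straw libraries (orange squares) for laccase and the called genes of the lists outside plant wall sugars, apart from GH18. Lines and bars give the mean and SD. The first 7 panels hold genes with higher means on aspen, such as KOG4157 (489, 197 and 183 CPM on aspen), and the other 7 hold genes called lower on aspen.

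**Figure D4:**
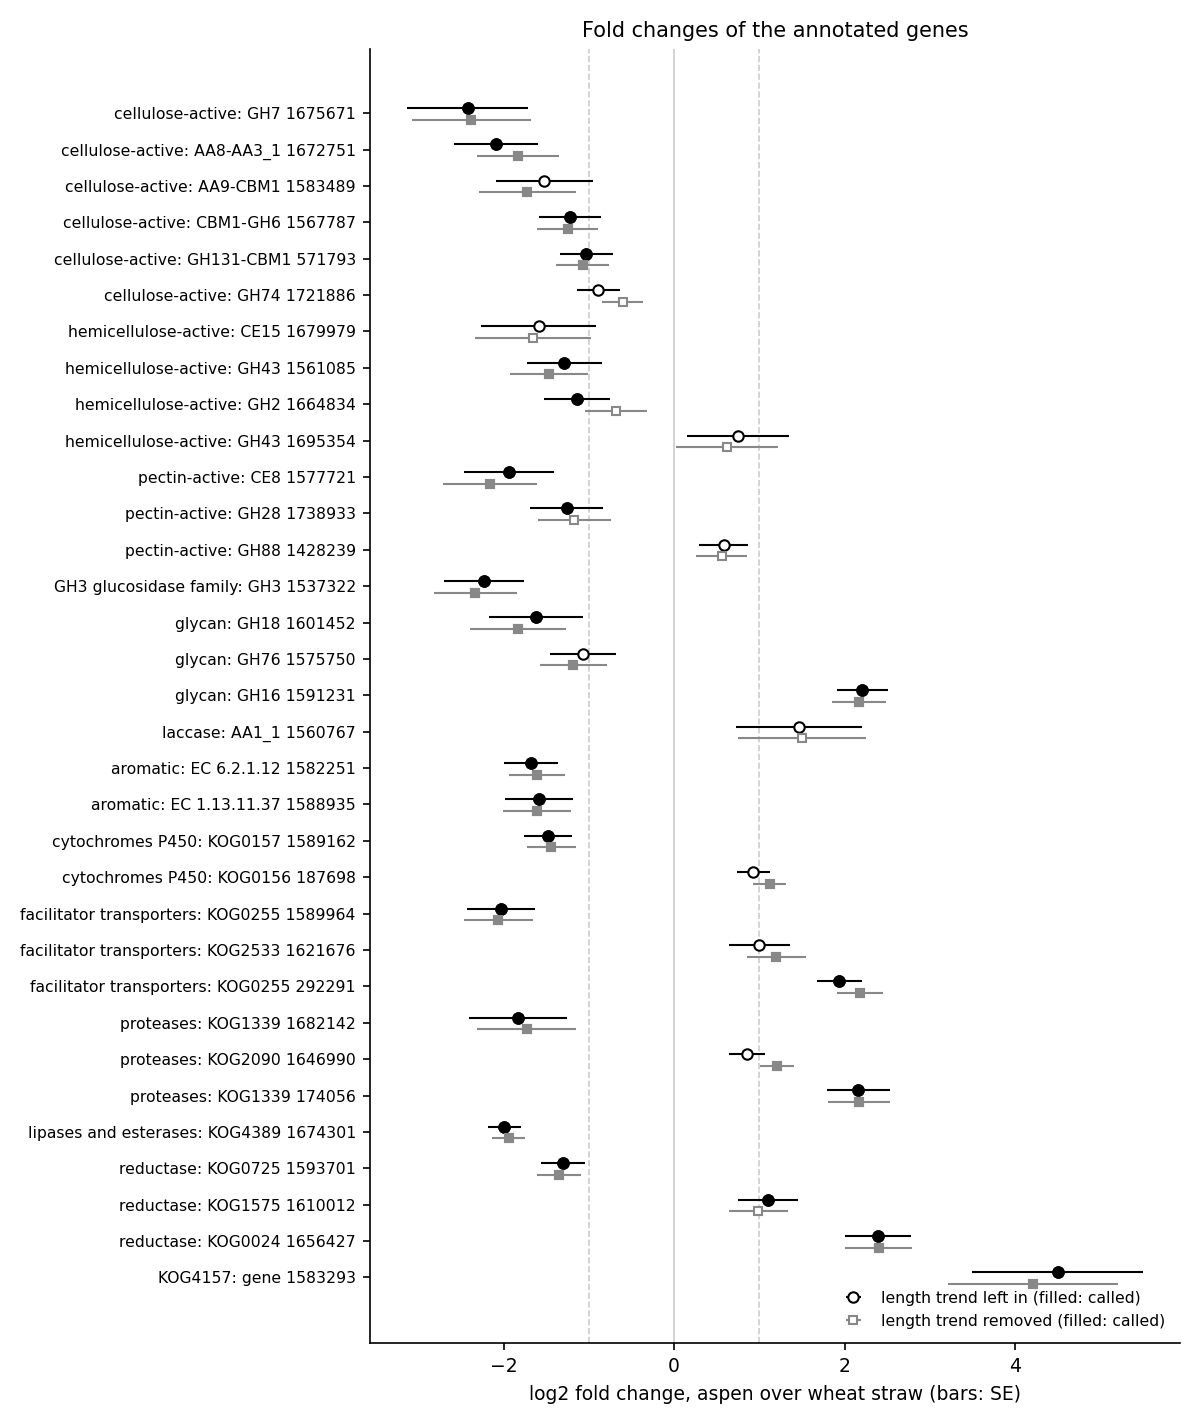
Log2 fold change of aspen over wheat straw (x axis, bars give the SE) for the named genes of the 13 lists (y axis), with the length trend left in (black circles) and removed (grey squares). Filled symbols mark called genes and dashed lines mark 2-fold. All 6 cellulose-active genes lie left of 0, and the removal shifted the long GH2 model from -1.14 to -0.68.

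Over all genes, the 8 largest increases and the 8 largest decreases were taken among called genes whose groups did not overlap and whose higher group averaged at least 10 CPM. Only the KOG4157 gene among these 16 was in the annotated lists, and the deposited table gives gene numbers with no names. The 8 increases had log2 fold changes of 4.09 to 5.56 and model lengths of 345 to 1149 bases. The 8 decreases had -4.48 to -2.39 and lengths of 912 to 4452 bases. All 16 kept their call with the length trend removed.

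Gene 1571143 rose the most, with 1412, 396 and 350.4 CPM on aspen, against 7.64, 4.01 and 33.9 CPM on wheat straw (log2 fold change 5.56 ± 1.12, adjusted p = 0.0029). Gene 664270 had 5121, 3266 and 2050.2 CPM on aspen, against 47, 19.7 and 187 CPM on wheat straw (5.36 ± 1.12, adjusted p = 0.0036). Without wheat straw replicate 3 the values were 6.95 and 6.7, and without aspen replicate 1 the first was 4.62. On maltose these genes averaged 0.899 and 0.796 CPM, and on xylan-galactomannan 157 ± 145 and 249.8 ± 270.5 CPM. Both are in the study's own selection for aspen, made on these libraries. They were most abundant on aspen and uneven on xylan-galactomannan.

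Gene 1598431 fell the most, with 12.3, 8.91 and 11.1 CPM on aspen, against 539.9, 149 and 31 CPM on wheat straw (-4.48 ± 1.00, adjusted p = 0.0054). Without wheat straw replicate 1 the log2 fold change was -3.06. The 3 wheat straw cultures differed widely for this gene, as did those on maltose (1871 ± 2188 CPM). Gene 1679428 had 7.79, 14.9 and 9.68 CPM on aspen, against 67.3, 97.9 and 105 CPM on wheat straw (-3.06 ± 0.56, adjusted p = 0.0018), and was highest on wheat straw among the 5 carbon sources.

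The place of the called genes among all 5 carbon sources was not part of the contrast. Of the 690 genes called higher on aspen, 531 (77%) had their highest mean on aspen, and 250 (36.2%) had their lowest mean on wheat straw. Of the 837 called lower on aspen, 670 (80%) had their lowest mean on aspen, and 308 (36.8%) had their highest mean on wheat straw. Over all genes tested, the mean was highest on aspen for 27% and lowest on aspen for 26%, and highest on wheat straw for 18.8% and lowest for 19.3%. Part of each share is set by the contrast itself, since a gene higher on aspen than on wheat straw cannot be lowest on aspen. With the length trend removed, the shares at the aspen extreme were 81.6% of the genes called higher and 75.2% of those called lower.

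**Figure D5:**
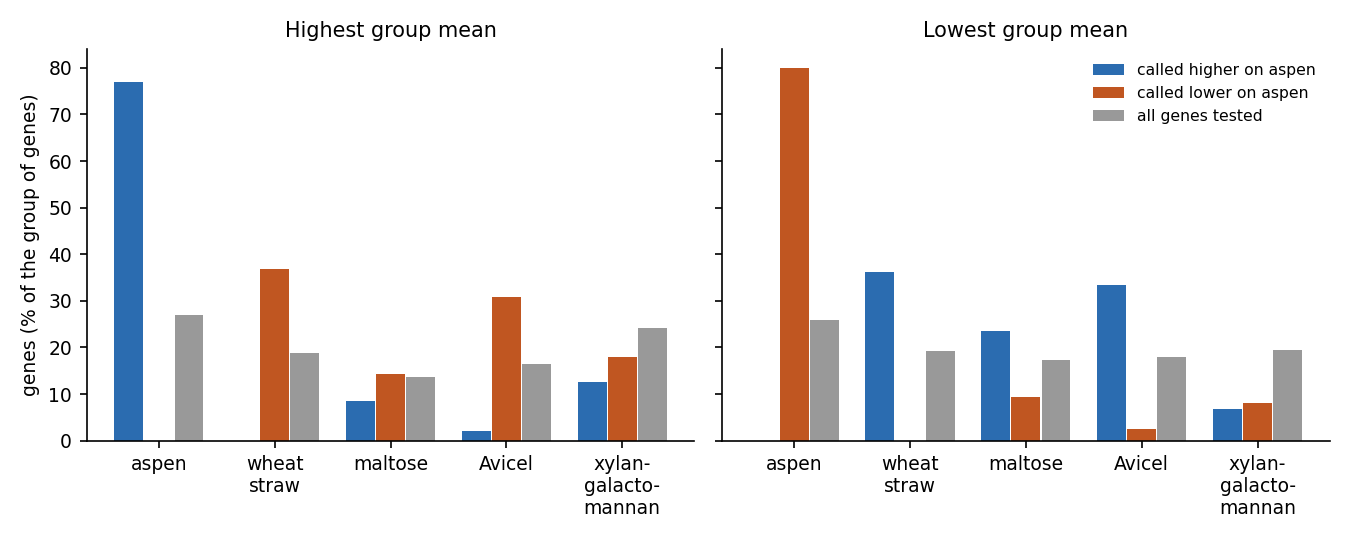
Share of genes (y axis, %) whose highest (left panel) or lowest group mean (right panel) was on each carbon source, for genes called higher on aspen (blue, 690), genes called lower (orange, 837) and all genes tested (grey, 11724). The tallest bars are the 77% of genes called higher that peaked on aspen and the 80% of genes called lower that were lowest there.

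The called genes were also read in comparisons that hold no aspen or wheat straw library. On Avicel against maltose, calls higher made up 3.66% of the genes tested and calls lower 4.44%. Of the genes lower on aspen than on wheat straw, 73 (8.72%) were higher on Avicel and 21 (2.51%) lower, with a median log2 fold change of 0.11. Of the genes higher on aspen, 33 (4.78%) were higher on Avicel and 88 (12.8%) lower, with a median of -0.22. The sign of the median was thus opposite for the genes higher and the genes lower on aspen, as a description with no test between the sets.

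On xylan-galactomannan against maltose, the shares over the genes tested were 5.87% higher and 2.79% lower. Of the genes higher on aspen, 120 (17.4%) were higher on xylan-galactomannan and 15 (2.17%) lower, with a median of 0.32. Of the genes lower on aspen, 60 (7.17%) were higher on xylan-galactomannan and 32 (3.82%) lower, with a median of -0.13. With the length trend removed, these shares were 18.4% of the genes higher on aspen and 6.7% of those lower on aspen, and on Avicel 4.51% and 9.84%. Both comparisons use the same maltose libraries, so they are not independent of each other. The dose of maltose also differs within each of them. Their calls come from the same fit on all 15 libraries as the aspen against wheat straw calls. Each gene's estimate of spread is thus shared, and a gene with a small spread is more easily called in every comparison.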

How the data were processed

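The authors trimmed 150 bp paired reads of polyadenylated RNA (Illumina HiSeq-2500), aligned them with TopHat2 and counted reads per gene model with HTSeq. Tool versions, strand setting and genome build were not given in the sources consulted. These deposited counts were analysed as they stand, with the deposited gene model length in bases. The deposited normalised table (DESeq 1.5, per the labels) was not used. All per-library columns matched a sample (0 left over).

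edgeR 4.0.16 in R 4.3.3 was run on all 15 libraries with TMM scaling (factors 1.07 to 1.31 for aspen and wheat straw), filterByExpr (11724 of 14165 models kept) and a robust quasi-likelihood fit with 1 mean per group. P-values were adjusted by Benjamini-Hochberg over all genes tested, and genes were called at 0.05 with an absolute log2 fold change above 1. The common biological coefficient of variation was 0.281, and 0.172 with the 6 libraries fitted alone. Replicates differed by far more than counting error. To remove the length trend, a lowess curve (span 0.3, prior count 1) of each library's deviation in log2 CPM on log2 length became an offset. The 3-library groups limit precision more than depth does. Low counts (1 to 20) were even in 66.5 to 72.1% of cases in these libraries, so halved counts were tried.

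Lists and named genes were chosen with earlier results of these data known. Named were the called members of each list with the largest change (up to 3 in each direction), 9 further members, the 8 largest changes and the 5 largest level differences in each direction. IDs without annotation are limited to 4. Tests were checked on simulated data. Alternatives were library-size and RLE scaling, 2 other filters, the 6 libraries alone, DESeq2 1.42.0, limma-voom 3.58.1, halved counts, no fold threshold, a replicate block, and each library left out.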

Additional observations from a re-analysis of the deposited data

How the results depend on the processing

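Against 690 genes higher and 837 lower on aspen, the counts were 778 and 901 with DESeq2, 711 and 866 with limma-voom, 760 and 681 with library totals as scaling, and 905 and 963 with only the 6 libraries fitted. A minimum of 10 CPM left 406 higher and 590 lower out of 8184 genes tested, and without a fold threshold 1522 were higher and 1941 lower. Leaving out 1 library gave 488 to 641 higher and 598 to 919 lower. The median log2 fold change of 0.029 was 0.108 with library totals, 0 with the minimum of 10 CPM, 0.041 with the 6 libraries alone, 0.007 with the length trend removed, 0.003 with the length trend removed and a replicate block, and 0.013 to 0.038 without 1 library. The Spearman correlation of fold change with length was -0.009 with the trend removed, -0.01 with the block added, -0.014 in the 6 libraries alone with the trend removed, a setting chosen after seeing the data, and -0.343 to -0.306 without 1 library. Calls with the trend removed numbered 1233, and 1600 in the 6 libraries alone. The settings were followed for 46 called genes, of which only part are shown by ID above. None of the 46 changed direction under any setting. Leaving out 1 library ended 7 to 13 of these calls, and the other settings ended 0 to 6.

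Same-numbered aspen and wheat straw libraries did not deviate together (correlations -0.17, -0.06 and -0.09), and no library correlated best with its own number. With the replicate number as a block, 637 genes were higher and 838 lower, or 1202 in all with the length trend removed. The block ended 3 of the 46 calls, among them GH7 (-2.1, adjusted p = 0.051) and GH28 (-1.25, adjusted p = 0.058). With 3 cultures a group, an unmeasured property of a culture cannot be told apart from the substrate.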

Other observations

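The called genes with the largest differences in mean level were in none of the annotated lists. The 5 largest increases had means of 3207 to 6796 CPM on aspen and 84.5 to 3323 CPM on wheat straw, and 3 of them kept their call with the length trend removed. The 5 largest decreases had means of 120.1 to 3984 CPM on aspen and 950.3 to 8086 CPM on wheat straw, and 4 kept their call. Among the decreases, a model of 1371 bases averaged 1057 ± 370 CPM on aspen and 2699.9 ± 658 CPM on wheat straw, against 29797 ± 11767 CPM on Avicel and 6.95 ± 1.25 CPM on maltose. A model of 1566 bases averaged 1102 ± 191 CPM on aspen and 3295 ± 193 CPM on wheat straw, against 8679 ± 3870.1 CPM on Avicel and 105 ± 32.6 CPM on maltose. In both, Avicel had the highest of these 4 means, then wheat straw, aspen and maltose.

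Cultures on 1 substrate were uneven for the largest increases. Aspen replicate 1 had the highest aspen level for all 8 of them, and wheat straw replicate 3 the highest wheat straw level for 7 of 8. Over all genes tested, aspen replicate 1 was the highest aspen library for 38.6%, and over the 690 genes called higher for 56.2%. Of the 837 genes called lower, aspen replicate 3 was the highest aspen library for 71%, against 30.3% over all genes tested.

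The study selected 91 genes for aspen and 88 for wheat straw on these libraries, of which it marked 37 each as particular to 1 substrate, so their direction here is not independent evidence. Of the 37 marked for aspen, 15 were called higher on aspen and all 37 had a positive log2 fold change, with a median of 1, and 5.89% of all genes tested were called higher. Of the 37 marked for wheat straw, 8 were called lower and 32 had a negative log2 fold change, with a median of -0.74. Without wheat straw replicate 3 the 8 calls were 5, and 7.14% of all genes tested were called lower. The 43 genes in both selections had 3 calls higher and 2 lower, with a median of 0.13.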
